A study of Mus musculus with 10 samples.

Results

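Expression of 42 genes of the cell cycle and of DNA replication was followed through naive mouse T cells. They were taken by symbol from a table of 34573 genes, and all 42 were present. The cells came from spleen at 6 weeks of age and were sorted as TCRb+ CD25- CD44- Cd62l hi lymphocytes. Wild-type (WT) mice gave WT CD4 and WT CD8 cells, and OB11/OB11 mice gave CD4hi, DP (CD4+CD8+) and CD4lo cells, with 2 libraries in each of the 5 groups. The series title concerns the autoregulatory loop of ThPOK, a zinc finger factor of helper T cells; what the OB11 allele changes is not stated in the labels.

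Naive T cells are quiescent and rest outside the cell cycle until an antigen signal drives them into it. On entry, E2F factors and cyclin E switch on the genes that license and copy DNA, among them the MCM helicase, its loaders Cdc6 and Cdt1, the sliding clamp Pcna and the enzymes that make deoxynucleotides. Mitotic genes follow: cyclins A and B with the kinase Cdk1, the Aurora and Polo kinases, the spindle checkpoint, and the kinetochore and kinesin proteins that move and part the chromosomes. In quiescent cells the DREAM complex holds many of the mitotic genes silent through a promoter element called the cell cycle homology region (CHR).

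The promoters of 4 genes are shown because they stand for the patterns described here: Mki67 and Top2a, abundant mitotic genes that were high in CD4hi and DP, Kif23, which was also high in wild-type CD8 cells, and Mcm6, the licensing gene with the highest mean level. The RefSeq promoter table (build GRCm38.p6) runs from 250 bases before to 50 bases after each start site and matched 34 of the 42 genes. Kif20a, Gins2, Aurkb, Tpx2, Ccne2, Ccna2, Stmn1 and Mcm4 were not matched. Capitals mark CHR elements, spelled TTTGAA and in a variant form TTCGAA, the box CCAAT, and E2F sites (TTTCCCGC, TTTGGCGC or TTTCGCGC), each read on both strands, and neighbouring or overlapping matches run together.

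Mki67, chr7:135716330-135716629, minus strand: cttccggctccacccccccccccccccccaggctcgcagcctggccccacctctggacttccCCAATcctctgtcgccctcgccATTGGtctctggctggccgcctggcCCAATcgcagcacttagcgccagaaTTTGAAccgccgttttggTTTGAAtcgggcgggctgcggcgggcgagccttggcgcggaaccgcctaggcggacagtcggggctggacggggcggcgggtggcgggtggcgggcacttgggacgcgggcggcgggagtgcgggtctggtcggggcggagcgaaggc
Top2a, chr11:99024140-99024439, minus strand: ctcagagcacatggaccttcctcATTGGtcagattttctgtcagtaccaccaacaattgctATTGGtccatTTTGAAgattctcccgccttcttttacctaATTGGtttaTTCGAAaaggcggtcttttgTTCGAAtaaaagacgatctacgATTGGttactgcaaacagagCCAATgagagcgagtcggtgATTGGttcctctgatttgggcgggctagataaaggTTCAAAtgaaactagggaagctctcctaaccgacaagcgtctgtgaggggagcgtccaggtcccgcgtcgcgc
Kif23, chr9:61946750-61947049, minus strand: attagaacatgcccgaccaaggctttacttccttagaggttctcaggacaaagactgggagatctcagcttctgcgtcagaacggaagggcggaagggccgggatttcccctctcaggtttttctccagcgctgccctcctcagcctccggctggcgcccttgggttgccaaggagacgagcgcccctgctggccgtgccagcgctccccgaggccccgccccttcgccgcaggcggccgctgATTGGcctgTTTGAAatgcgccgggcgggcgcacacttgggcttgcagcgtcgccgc
Mcm6, chr1:128359656-128359955, minus strand: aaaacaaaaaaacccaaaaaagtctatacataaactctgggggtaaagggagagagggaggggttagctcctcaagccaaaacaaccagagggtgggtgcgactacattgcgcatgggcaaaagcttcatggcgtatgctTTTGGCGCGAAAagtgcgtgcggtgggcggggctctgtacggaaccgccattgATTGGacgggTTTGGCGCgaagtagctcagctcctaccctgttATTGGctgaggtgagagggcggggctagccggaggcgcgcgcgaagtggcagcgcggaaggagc

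The promoters of the 17 matched mitotic genes and of the other 17 matched genes differed in what they held. A CHR element lay in 13 of the 17 mitotic genes, and in each of these together with a CCAAT box, against 3 of the 17 genes for replication, nucleotides, G1/S control and chromatin. An E2F site lay in 1 of the 17 mitotic genes (Cdk1) and in 9 of the 17 others. Among all 32851 promoters of the table, 19.2% held a CHR element, 37.4% a CCAAT box, 7.52% both and 1.84% one of the E2F sites. Mki67 held 2 CHR elements, Top2a 4, and Kif23 1 just after its start, whereas Mcm6 held 3 E2F matches, 2 of them overlapping. These matches are letters in a window and no measure of binding.

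Library totals ran from 5055956 to 7417789 counts, and the 42 genes took 3154 to 7468. CD4hi library 1 and WT CD4 library 2 stand apart, with 9801 and 10263 genes at 1 to 5 counts against 4112 to 5269 in the other 8 libraries. Counts of genes called are therefore also given without these 2 libraries, an alternative chosen after seeing the data. A letter L of unstated meaning stands in the titles of 2 groups, WT CD4 and CD4lo. Differences between a marked and an unmarked group cannot be told apart from the mark, whereas CD4lo against WT CD4, DP against CD4hi, and CD4hi and DP against WT CD8 compare libraries of like mark. Separate animals are not named for the libraries of a group, and the spread behind each p-value may therefore be technical. Fold changes are log2 values ± SE from edgeR's quasi-likelihood test with n = 2 libraries per group, called at an adjusted p (Benjamini-Hochberg) below 0.05, and levels are CPM, counts scaled to a common library size with TMM factors.

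Across the groups, CD4hi and DP cells carried the most transcript of these genes in sum, CD4lo cells an intermediate amount, and wild-type cells the least. The summed level of the 42 genes was 560 and 607 CPM in the WT CD4 libraries, 754 and 741 in WT CD8, 812 and 781 in CD4lo, 1012 and 1030 in CD4hi, and 1022 and 1055 in DP. The step from WT CD8 to CD4lo lay mainly in Mki67 (group means 33.4 and 61.1 CPM) and Top2a (22.5 and 34.6). Replication licensing and fork genes summed to 524 CPM in WT CD8 and 522 in CD4lo, and G1/S regulators to 22.1 and 22.2. The highest group mean was that of DP for 25 genes and that of CD4hi for 14, and the lowest was that of WT CD4 for 30. In these bulk samples a larger share of cycling cells and more transcript in every cell cannot be told apart. Of the 42 genes 41 passed the low-count filter, all except the checkpoint kinase gene Bub1, and 30 differed among the 5 groups by the edgeR F test of all groups together, against 25.8% of all 12193 genes tested.

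**Figure D1:**
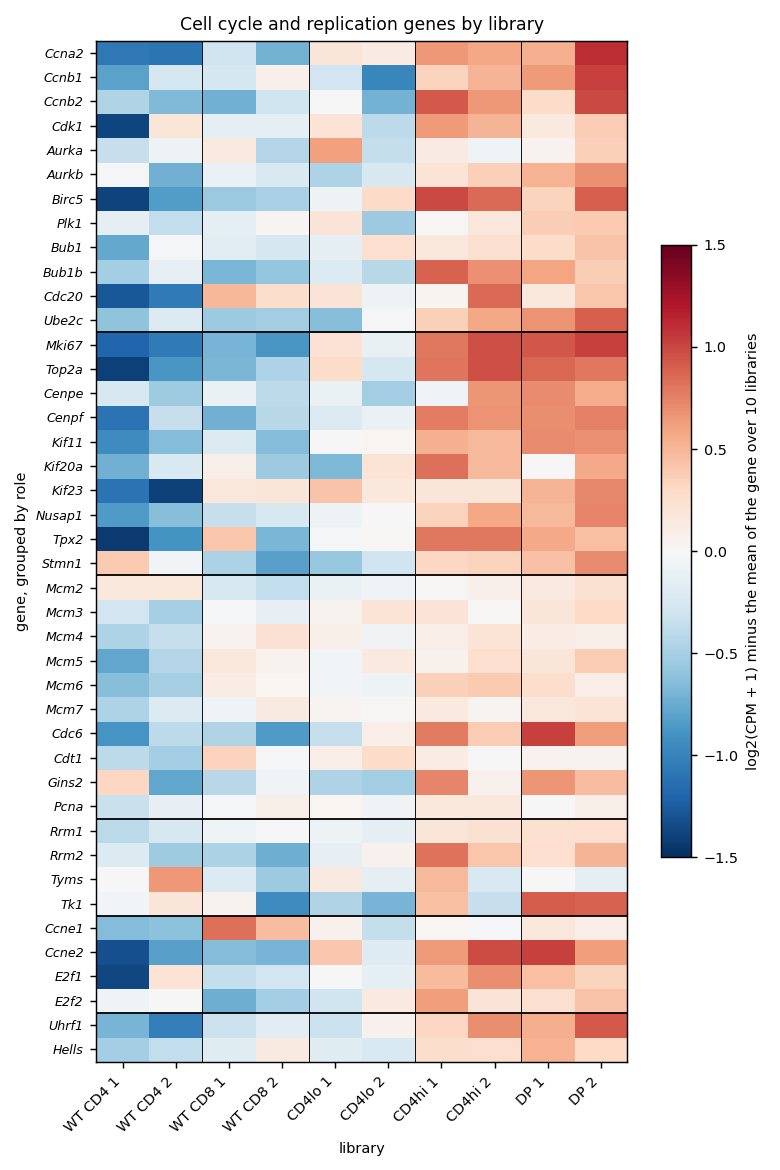
Level of each of the 42 genes (rows, grouped by role with black lines) in each of the 10 libraries (columns), as log2(CPM + 1) minus the gene's mean over the libraries. Red lies mostly in the CD4hi and DP columns, blue in the WT CD4 columns, and the colours are palest in the block of MCM genes.

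Patterns were also counted over the libraries themselves. The 4 CD4hi and DP libraries lay above the other 6 for 22 of the 42 genes, against 3.74% of all genes tested, and 14 of these 22 belong to the mitotic lists while only 1, Cdc6, belongs to the list of replication licensing and fork genes. Both WT CD4 libraries lay below the other 8 for 20 of the 42, against 12.3% of genes, and 7 of these are licensing and fork genes. Both CD4lo libraries fell between WT CD4 and the CD4hi and DP libraries for 17 of the 42, against 2.41%.

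By their medians, the 2 mitotic lists differed most from WT CD4 in CD4hi and DP, although the largest single difference was that of the G1/S gene Ccne2. Mki67 encodes Ki-67, the nuclear protein that coats mitotic chromosomes and marks cycling cells (chromosome 7, 135689784 to 135716361, GENCODE M21 on mm10). It measured 25.1 and 27.5 CPM in WT CD4 cells, 35.5 and 31.3 in WT CD8, 68.1 and 54.0 in CD4lo, 102 and 115.5 in CD4hi, and 112.5 and 119.7 in DP. The CD4hi and DP libraries overlapped each other and lay above all others, and CD4lo lay above both wild-type groups. Against WT CD4 the change was 2.04 ± 0.12 in CD4hi (edgeR adjusted p = 2.35e-08), 2.14 ± 0.12 in DP (1.01e-08) and 1.22 ± 0.12 in CD4lo (5.24e-06), while WT CD8 differed by 0.33 ± 0.13 and was not called (adjusted p = 0.0839). Top2a encodes the topoisomerase that untangles chromosomes before they part (chromosome 11, 98992943 to 99024189). It stood at 12.3 and 18.1 CPM in WT CD4 cells, 20.8 and 24.3 in WT CD8, 41.1 and 28.0 in CD4lo, 59.96 and 67.1 in CD4hi, and 62.4 and 59.3 in DP, in the same order of groups. Its edgeR changes against WT CD4 were 2.04 ± 0.18 in CD4hi (adjusted p = 1.65e-06), 1.98 ± 0.18 in DP (1.74e-06) and 1.19 ± 0.19 in CD4lo (0.000415).

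Cyclins and mitotic regulators were scarce, and their order among the lower groups varied. The CD4hi and DP libraries lay above all others for 7 of the 12, but CD4lo lay between those and WT CD4 for only 2, Ccna2 and Birc5. Ccna2, cyclin A, had 0.711 and 0.695 CPM in WT CD4 cells, 1.94 and 1.21 in WT CD8, 3.08 and 2.94 in CD4lo, 4.65 and 4.41 in CD4hi, and 4.23 and 6.78 in DP. Birc5 encodes survivin of the chromosomal passenger complex and had 0.533 and 1.25 CPM in WT CD4 cells, 1.75 and 1.88 in WT CD8, 2.81 and 3.92 in CD4lo, 6.98 and 6.27 in CD4hi, and 4.08 and 6.496 in DP. For both genes no WT CD4 library reached the level of any other library, and every CD4hi and DP library lay above every CD4lo library. Ccna2 rose in CD4hi (2.65 ± 0.50, edgeR adjusted p = 0.00189), DP (2.94 ± 0.48, 0.000572) and CD4lo (2.07 ± 0.52, 0.0135), and Birc5 rose by 2.81 ± 0.46, 2.49 ± 0.47 and 1.81 ± 0.50 in the same groups. The CD4lo call of Ccna2 was lost without WT CD4 2 or CD4lo 1, and that of Birc5 without WT CD4 1 or CD4lo 2. Ccnb1, cyclin B1, had 0.355 and 0.973 CPM in WT CD4 cells, 0.970 and 1.48 in WT CD8, 0.938 and 0.196 in CD4lo, 1.97 and 2.37 in CD4hi, and 2.66 and 3.81 in DP. It rose in DP only narrowly (2.21 ± 0.73, adjusted p = 0.0467), a call lost without any of 7 single libraries, and its CD4lo libraries overlapped WT CD4. Bub1b, the checkpoint gene for BubR1, measured 2.31 and 3.33 CPM in WT CD4 cells, 1.94 and 2.15 in WT CD8, 3.08 and 2.55 in CD4lo, 7.70 and 6.61 in CD4hi, and 6.11 and 5.08 in DP. Only the CD4hi value passed against WT CD4 among the 4 comparisons (1.31 ± 0.33, adjusted p = 0.0126), a call lost without WT CD4 1 or CD4hi 1, and its CD4lo level overlapped WT CD4. The other 7 genes of this list, Ccnb2, Cdk1, Aurka, Aurkb, Plk1, Bub1 and Ube2c, had group means between 0.575 and 5.15 CPM, and of these Ccnb2 alone was called, in CD4hi (1.85 ± 0.50) and DP (1.73 ± 0.50).

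Kinetochore and spindle genes mostly kept to this order. Cenpf, a kinetochore protein gene, had 3.20 and 6.11 CPM in WT CD4 cells, 4.46 and 5.78 in WT CD8, 6.84 and 7.44 in CD4lo, 14.3 and 13.4 in CD4hi, and 13.6 and 14.3 in DP. The CD4hi and DP levels lay well clear of the rest, and edgeR called both against WT CD4 (1.53 ± 0.26 and 1.54 ± 0.25). Cenpe encodes the kinetochore motor CENP-E and measured 7.996 and 6.39 CPM in WT CD4 cells, 8.92 and 7.12 in WT CD8, 8.98 and 6.46 in CD4lo, 9.31 and 15.9 in CD4hi, and 16.5 and 14.7 in DP. Here CD4lo and the wild-type groups overlapped, and the CD4hi call (0.83 ± 0.27, adjusted p = 0.0475) was lost under 9 of 17 alternatives and was 0.35 without CD4hi 2. Tpx2, a spindle assembly factor gene, had 1.60 and 2.78 CPM in WT CD4 cells, 8.34 and 3.36 in WT CD8, 5.90 and 6.07 in CD4lo, 11.1 and 11.2 in CD4hi, and 9.40 and 8.61 in DP. It was called in all 4 comparisons with WT CD4, but the WT CD8 libraries differed widely from each other and that change (1.31 ± 0.41) was 0.59 without WT CD8 1. Kif11, Kif20a and Nusap1 of the same list had group means between 1.23 and 12.1 CPM. Kif20a departed from the order, with 3.605 CPM in DP 1 against 3.88 in WT CD8 1 and 4.31 in CD4lo 2.

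**Figure D2:**
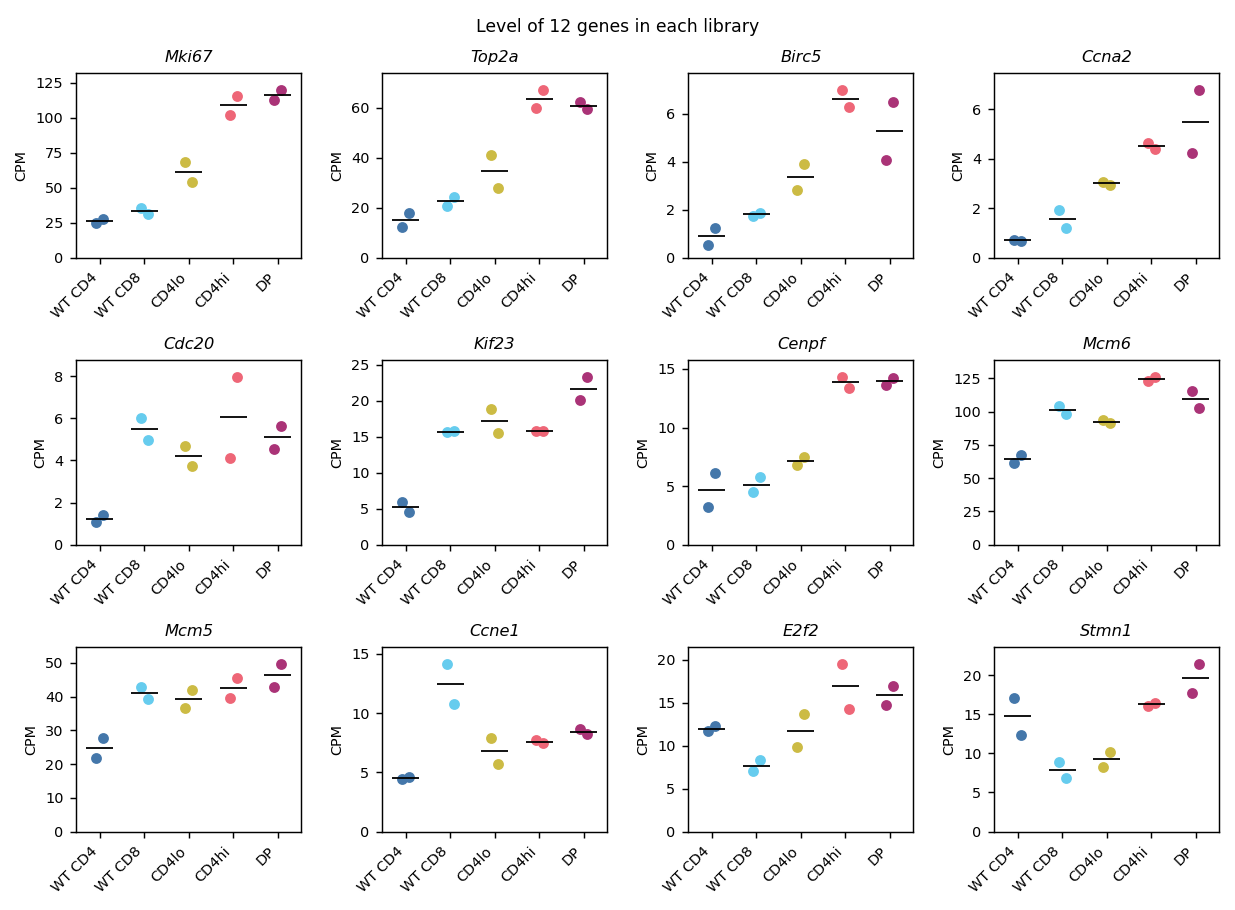
CPM of 12 of the genes in each library (points) with the mean of each group (black lines), on linear axes from 0. Mki67, Top2a, Birc5, Ccna2 and Cenpf step up from WT CD4 to CD4hi and DP with CD4lo between them, whereas Cdc20, Kif23, Mcm5 and Mcm6 are also high in WT CD8, Ccne1 is highest there, and E2f2 and Stmn1 are lowest there.

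Kif23 and Cdc20 departed from the pattern in that WT CD8 and CD4lo lay close to CD4hi, with WT CD4 alone low. Kif23 encodes the kinesin of centralspindlin, which builds the midzone for cytokinesis. It had 5.86 and 4.59 CPM in WT CD4, 15.7 in each WT CD8 library, 18.9 and 15.5 in CD4lo, 15.8 in each CD4hi library, and 20.1 and 23.3 in DP. Against WT CD4 it rose by 1.60 ± 0.20 in WT CD8 (edgeR adjusted p = 3.04e-05), 1.74 ± 0.19 in CD4lo (1.56e-05), 1.60 ± 0.20 in CD4hi (4.88e-05) and 2.07 ± 0.19 in DP (2.03e-06). Cdc20, the activator of the anaphase-promoting complex, had 1.07 and 1.39 CPM in WT CD4 cells, 6.01 and 4.97 in WT CD8, 4.69 and 3.72 in CD4lo, 4.12 and 7.96 in CD4hi, and 4.55 and 5.65 in DP. The 8 libraries outside WT CD4 lay between 3.72 and 7.96 CPM, and its changes were 2.11 ± 0.43, 1.76 ± 0.44, 2.27 ± 0.43 and 2.02 ± 0.43 in that order, with adjusted p of at most 0.0138. Stmn1, which encodes the microtubule-destabilising protein stathmin, went another way, with 17.1 and 12.4 CPM in WT CD4 cells, 8.92 and 6.85 in WT CD8, 8.31 and 10.2 in CD4lo, 16.1 and 16.4 in CD4hi, and 17.7 and 21.5 in DP. Its level in WT CD8 and CD4lo lay below every library of the other groups. edgeR called it lower in WT CD8 (-0.91 ± 0.22, adjusted p = 0.00751) and in CD4lo (-0.67 ± 0.21, 0.0437) than in WT CD4, the former lost without WT CD4 1 or WT CD8 2 and the latter under 13 of 17 alternatives.

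Replication genes changed by less and in more groups. Per kilobase of annotated exon the highest mean levels of all 42 genes were those of Pcna (34.3 CPM per kilobase), Mcm4 (25.2), Mcm6 (21.1) and Mcm3 (20.2), while Mki67 had 6.87, Top2a 4.36 and the mitotic regulators 0.241 (Bub1) to 2.36 (Cdc20). Mcm6, a subunit of the replicative helicase, measured 61.3 and 67.4 CPM in WT CD4 cells, 104 and 98.1 in WT CD8, 93.3 and 91.2 in CD4lo, 123 and 126 in CD4hi, and 115.5 and 102.8 in DP. WT CD4 lay below all other libraries, and the edgeR changes were 0.65 ± 0.09 in WT CD8 (adjusted p = 6.78e-05), 0.52 ± 0.09 in CD4lo (0.000717), 0.95 ± 0.09 in CD4hi (2.43e-06) and 0.76 ± 0.09 in DP (1.86e-05). Mcm5, another helicase subunit, had 21.7 and 27.7 CPM in WT CD4 cells, 42.7 and 39.2 in WT CD8, 36.7 and 41.9 in CD4lo, 39.6 and 45.4 in CD4hi, and 42.9 and 49.7 in DP. Its changes, 0.72 ± 0.13, 0.65 ± 0.14, 0.77 ± 0.13 and 0.90 ± 0.13 in that order, were all called, and the 8 libraries outside WT CD4 lay between 36.7 and 49.7 CPM. Mcm3, Mcm4, Mcm7 and the loader gene Cdt1 were likewise higher in all 4 groups than in WT CD4, by 0.32 to 0.66. Mcm2 was the exception, named after its values were seen, with 58.5 and 58.8 CPM in WT CD4 cells, 44.0 and 40.2 in WT CD8, 48.8 and 49.9 in CD4lo, 53.0 and 55.2 in CD4hi, and 58.1 and 61.4 in DP. It was lower in WT CD8 than in WT CD4 (-0.48 ± 0.09, edgeR adjusted p = 0.000892) and was not called in the mutant groups. Cdc6, which loads the helicase, followed the mitotic order instead, with group means of 1.28 ± 0.551 CPM (SD, n = 2) in WT CD4 cells, 1.25 ± 0.432 in WT CD8, 2.24 ± 0.706 in CD4lo, 4.28 ± 1.03 in CD4hi and 5.25 ± 1.23 in DP. Pcna, the sliding clamp, had group means of 70.1 to 91.9 CPM. Both WT CD4 libraries lay below the other 8 for Pcna, and edgeR called it higher in WT CD8, CD4hi and DP than in WT CD4. Gins2 of the CMG helicase had group means of 1.42 to 4.03 CPM and was called in no comparison with WT CD4.

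Nucleotide genes and the G1/S regulators were less uniform. Rrm1, the large subunit of ribonucleotide reductase, had 24.0 and 27.0 CPM in WT CD4 cells, 30.7 and 32.1 in WT CD8, 30.3 and 29.2 in CD4lo, 36.3 and 37.6 in CD4hi, and 37.9 and 38.4 in DP. WT CD4 lay lowest, CD4hi and DP highest, over a narrower range than for Mki67, and edgeR called CD4hi (0.53 ± 0.11) and DP (0.58 ± 0.11) against WT CD4. Tk1, thymidine kinase, had 2.13 and 2.64 CPM in WT CD4 cells, 2.33 and 0.672 in WT CD8, 1.34 and 0.979 in CD4lo, 3.40 and 1.53 in CD4hi, and 5.02 and 4.94 in DP, with the highest group mean in DP and the lowest in CD4lo. Neither Tk1 nor Tyms, thymidylate synthase, was called against WT CD4, and Rrm2, the small reductase subunit, was called in CD4hi alone (1.20 ± 0.32). Of the E-type cyclins, Ccne1 had 4.44 and 4.59 CPM in WT CD4 cells, 14.2 and 10.8 in WT CD8, 7.91 and 5.68 in CD4lo, 7.70 and 7.45 in CD4hi, and 8.62 and 8.19 in DP. Wild-type CD8 cells thus lay above every other group, 1.44 ± 0.24 over WT CD4 (edgeR adjusted p = 0.000551). Ccne2 was nearly absent from wild-type cells, with 3 counts over both WT CD4 libraries and 7 over WT CD8, against 23 in CD4lo, 39 in CD4hi and 46 in DP. Scaled to library size the ratio to WT CD4 was 14.5 in CD4hi (95% exact interval 4.61 to 73.4, counting error only), 14.6 in DP (4.70 to 73.4) and 7.82 in CD4lo (2.36 to 40.7). E2f2, an activating E2F, had 11.7 and 12.2 CPM in WT CD4 cells, 6.98 and 8.33 in WT CD8, 9.78 and 13.7 in CD4lo, 19.5 and 14.2 in CD4hi, and 14.7 and 17.0 in DP, so that only CD4hi and DP lay above WT CD4 throughout. It was not called against WT CD4 in any group, and E2f1, at 1.34 to 3.56 CPM in the group means, was not called either.

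The chromatin genes that act with the replication fork rose with the mitotic genes. Uhrf1, which brings the maintenance DNA methyltransferase to new DNA, had 7.11 and 5.42 CPM in WT CD4 cells, 9.51 and 10.6 in WT CD8, 9.52 and 12.7 in CD4lo, 15.2 and 20.3 in CD4hi, and 18.2 and 23.9 in DP. Hells, a remodelling ATPase, had 12.3 and 13.6 CPM in WT CD4 cells, 15.7 and 19.8 in WT CD8, 15.7 and 15.1 in CD4lo, 21.7 and 21.5 in CD4hi, and 26.2 and 22.2 in DP. Both were called in CD4hi (1.52 ± 0.24 and 0.73 ± 0.16) and DP (1.76 ± 0.23 and 0.89 ± 0.16), and Uhrf1 also in CD4lo (0.82 ± 0.25), a call lost without WT CD4 2 or CD4lo 2.

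**Figure D3:**
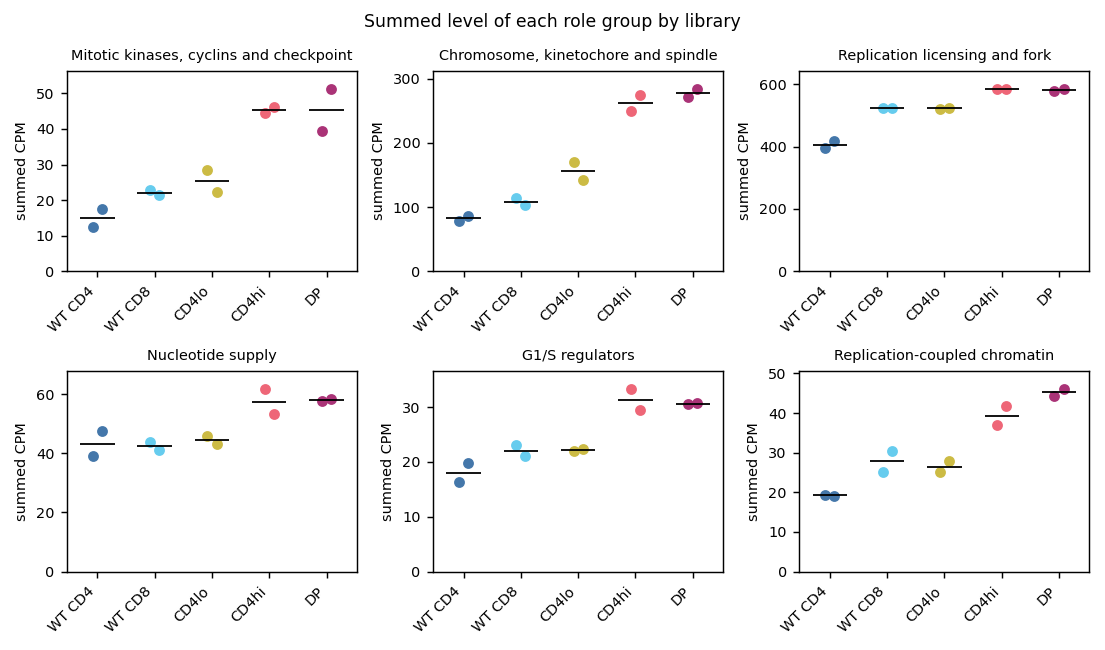
Summed CPM of the genes of each role in each library (points) with the group mean (black lines), linear axes from 0. CD4hi and DP lie above the other groups in every panel, by more in the mitotic panels than in replication licensing and fork, where WT CD4 alone lies low.

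Counted by comparison, CD4hi cells had 26 of the 42 genes higher than WT CD4 and none lower, where edgeR called 10.4% of all genes higher and 6.43% lower. DP cells had the same count, 26 higher and none lower, where 11.1% and 8.06% of genes were called. At an unadjusted p below 0.05 the counts were 31 higher and 0 lower in each, and DESeq2 called 18 and 21 higher and 0 lower. The median log2 ratio of the group means over all 42 genes was 1.20 in CD4hi and 1.09 in DP, against 0.01 and -0.01 over all genes tested. By role, the median in CD4hi was 1.49 for mitotic kinases, cyclins and checkpoint, 1.58 for chromosome, kinetochore and spindle genes, 0.55 for licensing and fork genes and 0.29 for nucleotide supply, and in DP it was 1.72, 1.83, 0.58 and 0.75. For G1/S regulators it was 1.08 in CD4hi and 1.03 in DP, and for replication-coupled chromatin 1.12 and 1.32. Without CD4hi 1 and WT CD4 2 the counts were 22 in CD4hi and 26 in DP. CD4lo cells, whose libraries share the title mark of WT CD4, had 16 genes higher and 1 lower, Stmn1, where 8.82% and 7.02% of all genes were called, with a median of 0.51. That total of 17 was 11 without WT CD4 1, 10 without CD4lo 1, 11 without CD4lo 2, and 19 without CD4hi 1 and WT CD4 2 together. WT CD8 cells had 11 genes higher and 2 lower, Stmn1 and Mcm2, where 11.1% and 10.6% of all genes were called. Of the 11 higher genes 7 were licensing and fork genes and only Cdc20, Kif23, Tpx2 and Ccne1 came from other lists, and the median was 0.35. The 4 comparisons share the WT CD4 libraries.

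Read as separation of the libraries, both CD4hi libraries lay above both WT CD4 libraries for 37 of the 42 genes and below for 1, against 29% and 25.5% of all genes. For DP 39 lay above and 0 below (29.5% and 28.9%), and for CD4lo 24 lay above and 3 below (25.8% and 28.2%). Both CD4lo libraries lay above both CD4hi libraries for 0 genes and below for 32 (22.4% and 24.9%), and above both DP libraries for 1 and below for 34 (22.6% and 25.6%). The edgeR calls were far fewer in the last comparisons than these separations.

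**Figure D4:**
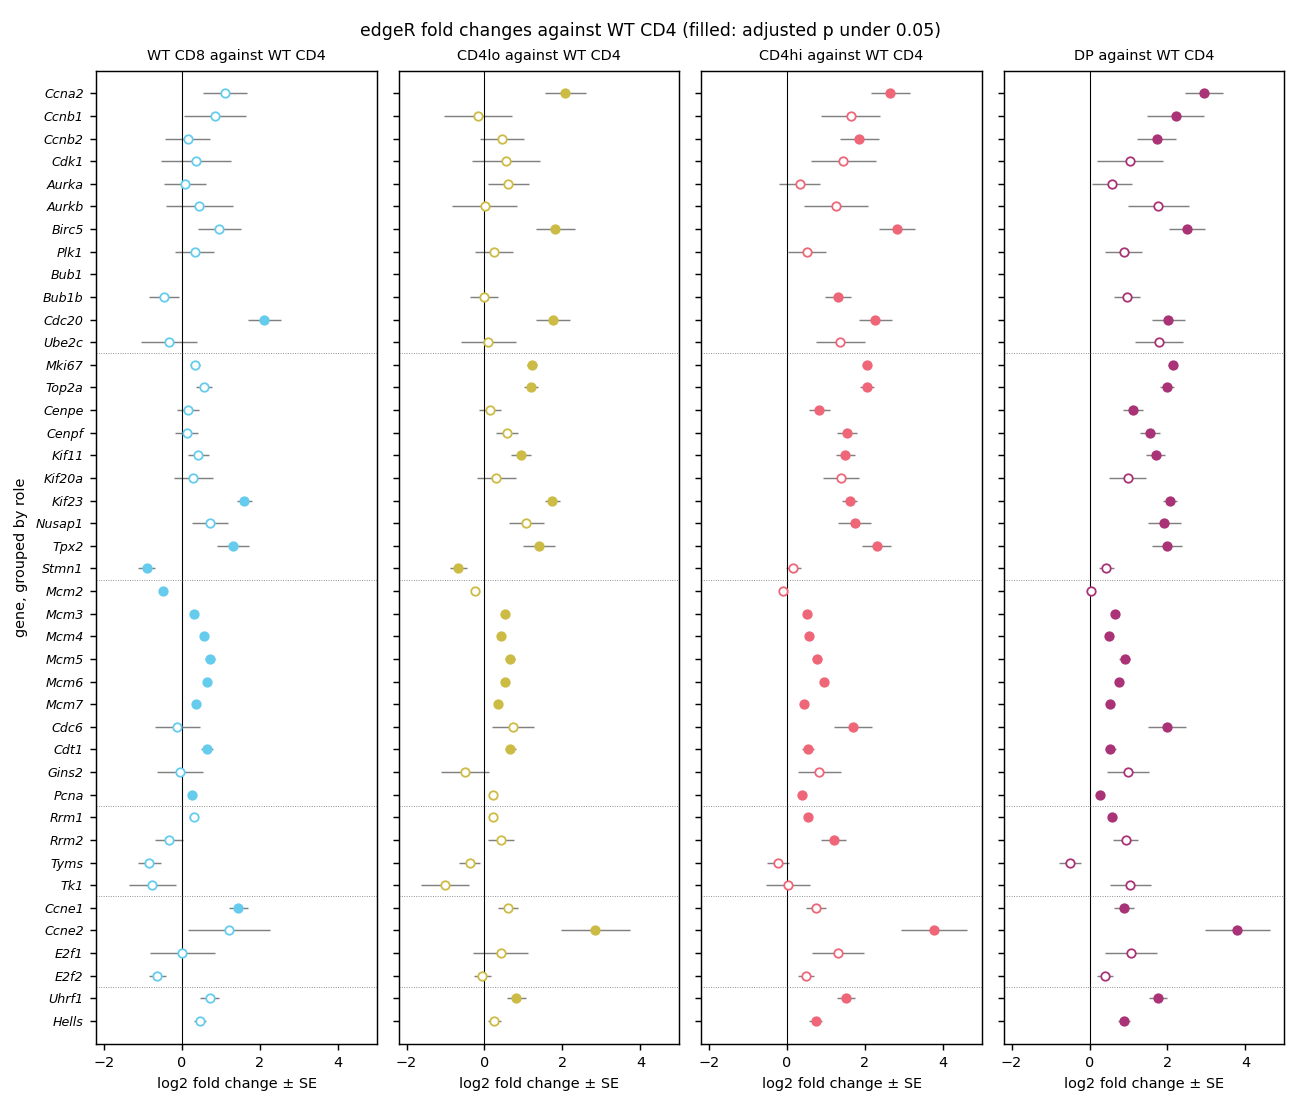
edgeR log2 fold change ± SE (x axis) of each gene (rows) in the 4 comparisons with WT CD4, filled where the adjusted p was below 0.05; Bub1 was not tested. The mitotic genes at the top lie farther from 0 in CD4hi and DP than in WT CD8, and the MCM genes, Mcm2 apart, lie between 0.32 and 0.95 in every panel.

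Against wild-type CD8 cells, in libraries of like mark, CD4hi and DP cells stood out again. CD4hi had 16 genes higher and none lower where 6.22% and 3.69% of all genes were called, and DP had 15 higher and none lower where 4.57% and 2.28% were called. At an unadjusted p below 0.05, 1 gene was lower in each, and DESeq2 called 0 lower. Mki67 differed by 1.71 ± 0.12 and 1.81 ± 0.11 (edgeR adjusted p = 1.29e-07 and 1.39e-07), Top2a by 1.48 ± 0.17 and 1.42 ± 0.17, and E2f2, not called against WT CD4, by 1.12 ± 0.22 and 1.03 ± 0.22. Stmn1 (1.06 ± 0.22 and 1.33 ± 0.21) and Mcm2 (0.37 ± 0.09 and 0.51 ± 0.09) were higher as well, whereas Mcm3, Mcm4, Mcm5, Mcm7 and Cdt1 were not called. These counts moved with single libraries. The count for CD4hi was 10 without WT CD8 1, 5 without WT CD8 2, 7 without CD4hi 1, 8 without CD4hi 2 and 10 without DP 2, and that for DP was 9 without WT CD8 1, 4 without WT CD8 2 and 5 without DP 2. Mki67 and Top2a were called under all 17 alternatives in both comparisons. CD4lo against WT CD8 had 1 gene higher, Mki67 (0.89 ± 0.12, adjusted p = 0.000228), and 1 lower, Ccne1 (-0.83 ± 0.23, adjusted p = 0.0485), where 3.41% and 2.08% of all genes were called. The call of Mki67 held under all 17 alternatives and that of Ccne1 was lost under 10, so the total of 2 fell to 1 without either library of WT CD8, CD4hi or DP, or without CD4lo 1.

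Among the mutant groups, no gene of the 42 was called between DP and CD4hi. edgeR called 0 of the 42 between them, where 1.62% of all genes were called, DESeq2 also called 0, and 2 had an unadjusted p below 0.05, Kif23 (0.46 ± 0.16) and Mcm6 (-0.19 ± 0.08). At that background a count of 0 among 42 says little of these genes. Both DP libraries lay above both CD4hi libraries for 14 of the 42 and below for 6, against 20.4% and 21.4% of all genes. Mki67 differed by 0.09 ± 0.10 and Top2a by -0.06 ± 0.15, while scarce genes were poorly bounded, as for Tk1 at 1.02 ± 0.53. CD4lo lay below CD4hi for 6 genes, where 4.27% of all genes were called lower: Bub1b (-1.32 ± 0.33), Cenpf (-0.96 ± 0.24), Top2a (-0.85 ± 0.16), Stmn1 (-0.83 ± 0.21), Mki67 (-0.82 ± 0.11, edgeR adjusted p = 0.000177) and Mcm6 (-0.43 ± 0.08). It lay below DP for 8, where 3.64% were called lower: Tk1 (-2.06 ± 0.58), Stmn1 (-1.10 ± 0.20), Cenpe (-0.98 ± 0.25), Cenpf (-0.97 ± 0.24), Uhrf1 (-0.94 ± 0.21), Mki67 (-0.92 ± 0.11, adjusted p = 6.35e-05), Top2a (-0.79 ± 0.16) and Hells (-0.65 ± 0.15). No gene was higher in CD4lo in either comparison, where 2.76% and 2.55% of all genes were called higher; the count was also 0 at an unadjusted p below 0.05 and by DESeq2. The 6 became 2 without CD4hi 2, 3 without CD4lo 1 and 1 without CD4lo 2, and the 8 became 3 without DP 1, DP 2 or CD4lo 2 and 2 without CD4lo 1, with Mki67 called under all 17 alternatives in both. CD4lo carries the title mark L and the other mutant groups do not.

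Beyond the 42, 114 further genes of the same pathways were read from lists of G1 factors, E2F and DREAM factors, replication, mitosis and quiescence. Of these, 26 were higher and 4 lower in CD4hi than in WT CD4, 23 and 3 in DP, 10 and 2 in CD4lo, and 12 and 5 in WT CD8. In either direction these were 26.3% of the 114 in CD4hi and 22.8% in DP, against 16.8% and 19.1% of all genes tested, but only 10.5% in CD4lo and 14.9% in WT CD8, below the 15.8% and 21.7% of all genes. Of the 40 mitotic genes listed 12 were higher in CD4hi and 14 in DP. Called mitotic genes included the motor gene Kif15 (2.19 ± 0.32 in CD4hi), the condensin gene Ncapg (2.36 ± 0.38 in CD4hi) and the kinetochore genes Ndc80 (1.26 ± 0.35 in CD4lo) and Nuf2 (2.41 ± 0.66 in DP). Ckap2, which encodes a spindle protein, rose by 2.47 ± 0.81 in DP, and Ncaph, another condensin gene, by 1.21 ± 0.32 in CD4lo. The farthest from WT CD4 in all 4 groups was Racgap1, the partner of Kif23 in centralspindlin, with 6.04 and 5.14 CPM in WT CD4 cells, 63.4 and 70.7 in WT CD8, 47.9 and 48.8 in CD4lo, 48.0 and 50.7 in CD4hi, and 35.9 and 40.5 in DP. As for Kif23, WT CD4 was set apart from all other groups, WT CD8 included (3.60 ± 0.13, edgeR adjusted p = 7.3e-11). Cdk2, the kinase partner of cyclin E, ran the other way at 27.6 ± 1.52 CPM (SD, n = 2) in WT CD4 cells, 10.2 ± 2.38 in WT CD8, 14.1 ± 0.543 in CD4lo, 17.98 ± 2.92 in CD4hi and 15.8 ± 1.57 in DP, lower in all 4 comparisons. Of the 10 quiescence genes 5 were called in CD4hi (3 higher, 2 lower), 3 in DP, 3 in WT CD8 and 2 in CD4lo, and of the 17 E2F, RB and DREAM factors 4, 2, 2 and 1. The inhibitor Cdkn1b had group means of 135 to 147 CPM and Ccnd2, cyclin D2, of 459 to 556 CPM, neither called against WT CD4, and Ccnd3 was called once, lower in DP (-0.27 ± 0.08). Btg1, an antiproliferative gene, was called once, higher in WT CD8 (0.21 ± 0.06), Foxm1, a driver of mitotic genes, once, in CD4hi (1.43 ± 0.36), and Mybl2 in no comparison with WT CD4.

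Markers of other cells moved with some of the groups, and their part in these results was not tested. The 10 macrophage markers in the table, of 11 listed, summed to 11.02 and 17.9 CPM in WT CD4 cells, 36.7 and 34.1 in WT CD8, 27.7 and 32.9 in CD4lo, 42.1 and 38.0 in CD4hi, and 141.5 and 152.2 in DP. The 8 B cell markers summed to 34.1 and 50.3 CPM in WT CD4 cells, 214 and 219 in WT CD8, 72.2 and 80.3 in CD4lo, 60.9 and 43.7 in CD4hi, and 154.7 and 178.3 in DP. Macrophage transcripts were highest in DP and B cell transcripts in WT CD8, followed by DP. The 9 listed genes of activated and memory T cells summed to 238.1 to 247.5 CPM in WT CD4 cells, 363.4 to 369 in WT CD8, 429.8 to 474 in CD4lo, 482.9 to 517.2 in CD4hi and 350.3 to 362.2 in DP. In WT CD8, Ly6c2 (132.3 CPM against 1.56 in WT CD4), Il2rb (146.6 against 78.3) and Cxcr3 (11.7 against 4.08) were higher. Cd44 (37.9 against 79.0 CPM), Icos (25.1 against 44.1), Tnfrsf9, Pdcd1, S100a4 and S100a6 were lower in WT CD8 than in WT CD4. The 7 regulatory T cell markers in the table summed to 479.2 to 503.8 CPM in WT CD4 cells, 69.6 to 72.2 in WT CD8, 188.6 to 197.4 in CD4lo, 644.3 to 644.9 in CD4hi and 328.6 to 342.7 in DP. The CD4lo sum was mostly Folr4, with a group mean of 108 CPM, followed by Ikzf2 (39.6), Il2ra (26.4) and Ctla4 (13.5). Foxp3 had 1.33 CPM there, Nrp1 3.90 and Lrrc32 0.196. The 5 gamma delta T cell markers in the table, of 7 listed, summed to 124.1 to 124.9 CPM in CD4lo and at most 7.18 in any other library, and the 7 NK cell markers to 9.24 to 10.4 in WT CD4 cells, 125.9 to 137.7 in WT CD8, 110.6 to 117.5 in CD4lo, 45.3 to 47.1 in CD4hi and 75.5 to 81.8 in DP. The NK sum of WT CD8 was nearly all Nkg7 and Eomes, with group means of 83.5 and 46.4 CPM. Ncr1, Klre1 and Tyrobp had 0.097, 0.687 and 1.13 CPM in WT CD8, and Klrb1c and Klra8 had 0. Nkg7 and Eomes were also nearly all of the NK sum in CD4hi (15.6 and 28.5 CPM) and in DP (38.7 and 35.6). Ncr1 had 0.174 CPM in CD4hi and 0.596 in DP. In CD4lo, Ncr1 had 12.7 CPM and Klrb1c 3.30. The 8 T cell markers summed to 2120 to 2712 CPM in all libraries. The 6 thymocyte markers summed to 131.2 to 218.1 CPM over all libraries. Most of this was Themis, with group means of 119.2 to 195.1 CPM, whereas Cd1d1 had 10.1 to 12.8 and Rag1 at most 0.603. Rag2 and Ptcra had at most 10 counts each over all 10 libraries. Dntt had group means of 9.76 CPM in WT CD4, 10.9 in WT CD8, 5.53 in CD4lo, 2.02 in CD4hi and 17.04 in DP.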

How the data were processed

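RNA was sequenced from 10 libraries of sorted naive T cells, prepared per the labels from 10 ng of total RNA with a directional kit and depletion of ribosomal cDNA. The authors deposited 1 table of raw read counts per gene symbol; the submitters' processing notes name TopHat2, HTSeq and build mm10, with no versions, and the annotation and strand setting are not given in the sources used here. Library totals were 5055956 to 7417789 counts, without molecular identifiers, so intervals cover counting error only. The exons of 12 of the 42 genes overlap those of another gene, on either strand, in GENCODE M21 (Ccna2, Plk1, Cdc20, Ube2c, Top2a, Kif20a, Nusap1, Stmn1, Mcm7, Gins2, Tk1 and Ccne2). How reads in these stretches were assigned is not known, because the strand setting is not given.

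The software was edgeR 4.0.16 with limma 3.58.1 in R 4.3.3, and DESeq2 1.42.0 for an alternative. filterByExpr by group kept 12193 of 34573 genes, counts were scaled by TMM, and 1 quasi-likelihood model of all 10 libraries (5 residual degrees of freedom) gave 10 comparisons and an F test of the 5 groups, two-sided, with Benjamini-Hochberg adjustment over all genes tested. No exact permutation test was made, because 2 libraries against 2 allow no p under 0.333. The script was tested on simulated data. The members and lists were chosen with earlier results of these data known. Values in every library are given for Mki67, Top2a, the 6 called genes with the largest changes in each of 7 comparisons and the most abundant gene of each role, 21 genes in all; other pathway genes were named if among the 3 largest called changes against WT CD4, with 6 named whatever they showed. Alternatives were DESeq2, its size factors, no filter, a replicate block, only the compared groups, removal of the most abundant symbol and mitochondrial genes, and leaving out each library. Positions come from GENCODE M21 and promoters from RefSeq.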

Additional observations from a re-analysis of the deposited data

How the results depend on the processing

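The number of the 42 genes called in each comparison is compared here with its value under each alternative. DESeq2 called 11 in place of 17 for CD4lo against WT CD4, 3 in place of 6 for CD4lo against CD4hi, 3 in place of 8 for CD4lo against DP, 8 in place of 16 for CD4hi against WT CD8, 9 in place of 15 for DP against WT CD8 and 1 in place of 2 for CD4lo against WT CD8; a fit of only the compared groups called 11 for CD4lo against WT CD4. The cause of these shifts was not tested. With each library left out in turn, the counts ran from 9 to 17 for WT CD8, 20 to 27 for CD4hi, 20 to 25 for DP and 10 to 19 for CD4lo against WT CD4, 1 to 7 for CD4lo against CD4hi, 2 to 10 for CD4lo against DP, 5 to 17, 4 to 19 and 1 to 3 for CD4hi, DP and CD4lo against WT CD8, and 27 to 34 for the 5-group test. A lone library was then assumed to vary like those of the other groups. Every other setting stayed within 1.5 times, and DP against CD4hi stayed at 0. Differences between library 1 and 2 correlated above 0.1 in 2 of 10 pairs of groups, with a range of -0.548 to 0.126. The lowest value was that of WT CD4 with CD4hi, the groups that hold WT CD4 2 and CD4hi 1. Such correlations cannot show whether the replicate numbers of the titles pair the libraries. A replicate block gave 11, 25, 24 and 15 calls for WT CD8, CD4hi, DP and CD4lo against WT CD4. It gave 6 and 6 for CD4lo against CD4hi and DP, and 11, 12 and 2 for CD4hi, DP and CD4lo against WT CD8. Of 144 called fold changes, none reversed under 17 alternatives and 65 kept their call under all of them. Over all genes, DESeq2 called 1758, 1287, 1458 and 1270 for WT CD8, CD4hi, DP and CD4lo against WT CD4 in place of 2651, 2048, 2332 and 1931, 131 in place of 198 for DP against CD4hi and 502 in place of 835 for DP against WT CD8; no filter gave 345 for DP against CD4hi, fits of only the compared groups gave 1202 for CD4hi against WT CD4 and 1351 for DP against WT CD8, and leaving out CD4hi 1 and WT CD4 2 gave 1151 in place of 755 for CD4lo against DP. Depth limits the scarce mitotic regulators most, since genes near 1 CPM rest on fewer than 10 counts in a library.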
